A study of Mus musculus with 8 samples.

Results

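The genes described are 10 members of the Ets family of transcription factors, Erg, Fli1, Etv6, Elk3, Elf1, Spi1, Spib, Spic, Ets1 and Ets2. They were taken by gene symbol from a fixed list, and all 10 were among the 24011 named genes measured. Of 16 further mouse Ets family genes, 15 were measured and serve as the rest of the family. The arrays compared 2 sorted populations from bone marrow of adult C57Bl6 mice, with 4 arrays each. Lin+ cells carry surface antigens of mature blood lineages. The other population, rich in haematopoietic stem cells (HSCs), was sorted as LSK (lineage-negative, Sca-1-positive, Kit-positive) and CD48-negative. It is called HSC-enriched here. The sample labels add CD105 positivity to that gate, whereas the design text of the series names CD150 in its place. Both populations came from animals with no stated genotype or treatment. Since the labels do not state that samples are separate mice, the p-values cover the variation from sample to sample and that variation can be technical.

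Ets proteins share a winged helix-turn-helix domain that binds DNA around the core GGAA. In blood, Erg and Fli1 bind regulatory regions together with Tal1, Lyl1, Lmo2, Runx1 and Gata2, and Erg and Etv6 are needed to maintain adult HSCs. PU.1, the product of Spi1, directs myeloid and B cell fates in a dose-dependent way, and its relatives Spi-B and Spi-C serve mature B cells, plasmacytoid dendritic cells and iron-recycling macrophages. Ets1 acts mainly in lymphocytes, and Ets2 in macrophages and in response to Ras signalling.

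Among the 10 genes, 3 were higher in HSC-enriched cells, 5 were lower and 2 did not pass the test (limma, Benjamini-Hochberg adjusted p under 0.05 over all genes). Of all genes tested 27.8% were called, 15.5% higher and 12.4% lower. Of the 10 genes 7 were called with at least a 2-fold difference, against 10.9% of all genes. The 4 arrays of one population lay entirely to one side of the other for 8 of the 10 genes, 3 above and 5 below. Over all genes this share was 28.9%, 15.9% above and 13% below. The median absolute difference of the 10 was 1.52 on the log2 scale, against 0.20 over all genes and 0.14 over the 15 other family genes. Erg, Etv6 and Elk3 made up the higher group and Spi1, Spib, Spic, Ets1 and Ets2 the lower one, with Fli1 and Elf1 between them. The list of 10 was drawn up with results of these arrays known, so its share of called genes is a description. In sorted populations, fewer cells of a type and less RNA per cell cannot be told apart.

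Promoters were searched for the Ets core and for a GATA site where RefSeq start sites (GRCm38.p6) were held. These covered 7 of the 10 genes, in 10 windows of the 250 bases before the start. Of these genes, windows are shown for Erg and Etv6, which had the largest rises, and for Spib and Spic, which had the largest falls. Capitals mark GGAA, or TTCC on the opposite strand, and GATAAG, or CTTATC on the opposite strand.
Erg, chr16:95459349-95459598, minus strand, the most downstream of its 3 starts: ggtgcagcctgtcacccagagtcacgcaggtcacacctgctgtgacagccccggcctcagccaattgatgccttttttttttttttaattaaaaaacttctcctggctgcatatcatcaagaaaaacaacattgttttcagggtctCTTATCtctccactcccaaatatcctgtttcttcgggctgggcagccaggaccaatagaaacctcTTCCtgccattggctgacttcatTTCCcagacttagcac
Etv6, chr6:134035450-134035699, plus strand: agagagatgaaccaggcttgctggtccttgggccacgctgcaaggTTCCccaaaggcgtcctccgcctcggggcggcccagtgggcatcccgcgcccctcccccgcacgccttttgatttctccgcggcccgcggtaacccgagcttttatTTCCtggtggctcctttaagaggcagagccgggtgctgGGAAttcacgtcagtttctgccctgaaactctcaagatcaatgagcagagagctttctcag
Spib, chr7:44532072-44532321, minus strand: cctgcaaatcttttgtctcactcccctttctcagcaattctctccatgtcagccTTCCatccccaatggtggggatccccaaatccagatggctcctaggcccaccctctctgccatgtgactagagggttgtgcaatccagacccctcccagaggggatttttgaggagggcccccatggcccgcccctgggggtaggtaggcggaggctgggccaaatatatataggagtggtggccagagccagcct
Spic, chr10:88683024-88683273, minus strand: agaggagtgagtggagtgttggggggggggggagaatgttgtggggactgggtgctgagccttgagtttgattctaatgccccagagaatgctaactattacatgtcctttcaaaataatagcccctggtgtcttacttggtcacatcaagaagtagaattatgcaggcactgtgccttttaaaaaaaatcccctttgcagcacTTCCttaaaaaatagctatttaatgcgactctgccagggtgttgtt
The Erg window holds 2 GGAA cores and 1 GATAAG, and the Etv6 window holds 3 GGAA cores. Spib and Spic hold 1 GGAA core each. A GGAA core on either strand occurs in 93.4% of 32536 windows of this length, with a median of 3, so these counts do not set the promoters apart. GATAAG occurs in 6.42% of windows. Of the 10 windows only the Erg window shown holds it, and the other Erg starts do not. The longer Ets sites CCGGAAGT and GAGGAAGT, found in 2.9% and 2.45% of windows on either strand and each containing the core, occur in none of the 10 windows. The other Erg starts hold 4 GGAA cores (chr16:95530366-95530615) and 0 (chr16:95586594-95586843). A match is a description of the letters and not a binding site.

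**Figure D1:**
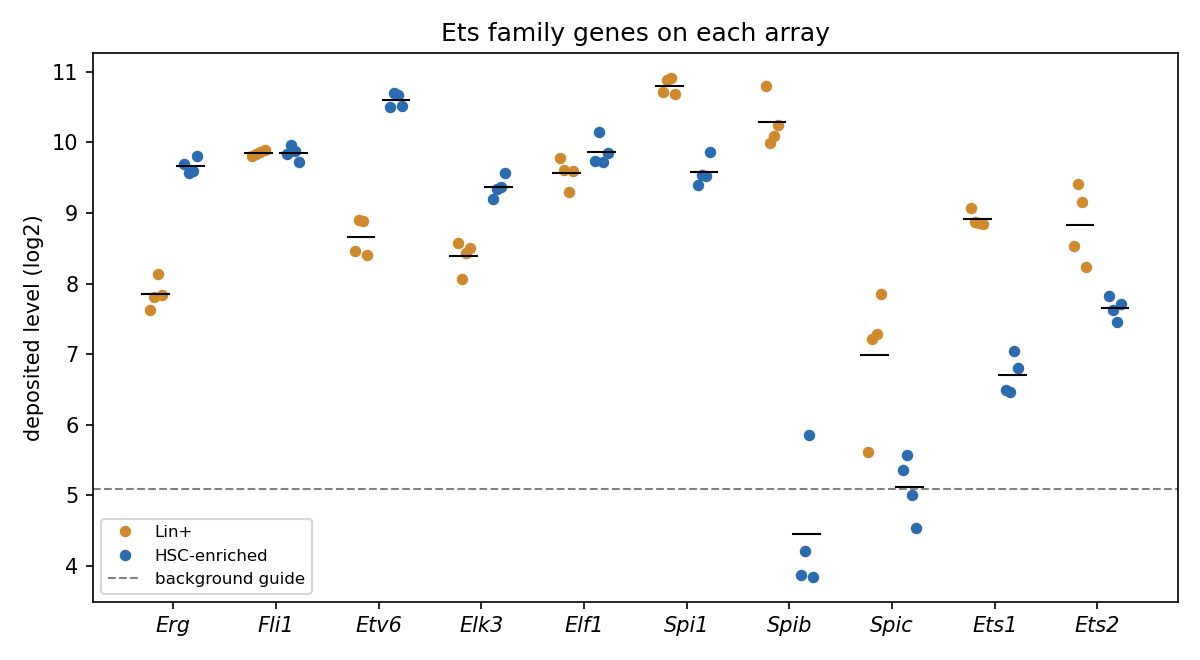
Deposited log2 level of the 10 genes on each array, Lin+ in orange and HSC-enriched in blue, with group means as black lines and the background guide at 5.09 dashed. Erg, Etv6 and Elk3 lie higher on all HSC-enriched arrays, Fli1 and Elf1 overlap between the groups, and only Spib and Spic reach the guide.

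Erg and Fli1 are closely related proteins, yet only the difference of Erg passed the test. Erg (Entrez gene 13876) read 7.63, 7.81, 8.14 and 7.84 on Lin+ replicates 1 to 4 and 9.69, 9.56, 9.60 and 9.81 on HSC-enriched replicates 1 to 4. Every HSC-enriched array exceeded every Lin+ array by more than 1 log2 unit. The means were 9.67 ± 0.11 and 7.85 ± 0.21 (SD, n = 4), a difference of 1.81 (95% interval 1.53 to 2.09) or 3.51-fold, with a limma adjusted p of 3.0e-06. Erg ranked 300th from the top among all genes by this difference.

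Fli1 (14247), which is active in megakaryocytes, endothelium and stem cells, stood at 9.80, 9.84, 9.87 and 9.89 in Lin+ cells. HSC-enriched arrays gave 9.83, 9.97, 9.88 and 9.72. All 8 values lie within a narrow band and the groups overlap. The means were 9.85 ± 0.10 and 9.85 ± 0.04 (SD, n = 4), and the 95% interval of the difference, -0.21 to 0.21, bounds any change at 1.16-fold either way (limma adjusted p = 0.99). The change of Erg exceeded that of Fli1 by 1.81 on the log2 scale, measured as the difference of both genes within each array (exact two-sided permutation test, p = 0.0286, the smallest that 4 against 4 arrays allow). This is 1 of 5 pairs of relatives compared in this way, with an adjusted p of 0.0476. The pairs come from the list of 10, drawn up with results of these arrays known. Their p-values are therefore a description and no independent support. With 7 arrays that call was lost for 6 of the 8 omissions (adjusted p = 0.0714) and kept without HSC-enriched replicate 2 or Lin+ replicate 3. The difference stayed between 1.72 and 1.90. The groups did not overlap in this difference on the 8 arrays. With 7 arrays the permutation test allows no p smaller than 0.0286 before adjustment, and the adjusted p also depends on the other pairs. A lost call therefore does not single out an array.

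Etv6 (14011), a repressor with a self-associating pointed domain, rose more than any other of the 10 genes. Lin+ arrays gave 8.46, 8.90, 8.88 and 8.41, and HSC-enriched arrays 10.51, 10.70, 10.67 and 10.52. The groups are separated by a gap larger than the spread within either. The means of 10.60 ± 0.10 and 8.66 ± 0.26 (SD, n = 4) differ by 1.94 (95% interval 1.63 to 2.25), or 3.84-fold, with a limma adjusted p of 3.7e-06.

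Elk3 (13713), also called Net, is a ternary complex factor that joins serum response factor on DNA and represses until phosphorylated. Its Lin+ values were 8.57, 8.07, 8.43 and 8.51, and its HSC-enriched values 9.19, 9.34, 9.37 and 9.56. No HSC-enriched array fell into the Lin+ range. The difference was 0.97 (95% interval 0.67 to 1.27), or 1.96-fold, with a limma adjusted p of 0.00033.

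Elf1 (13709), a broadly expressed activator of lymphoid and endothelial genes, did not pass. It read 9.77, 9.60, 9.29 and 9.59 in Lin+ and 9.74, 10.15, 9.72 and 9.85 in HSC-enriched cells. The groups overlap, since Lin+ replicate 1 exceeds HSC-enriched replicates 1 and 3. The difference was 0.30 (95% interval -0.01 to 0.61, limma adjusted p = 0.15), and it was called when the arrays were quantile normalized again (0.40, adjusted p = 0.044). Elk3 exceeded Elf1 by 0.67 in change (exact permutation p = 0.0286, adjusted p = 0.0476). As for Erg and Fli1, only omissions of HSC-enriched replicate 2 or Lin+ replicate 3 kept that call with 7 arrays, and the difference ran from 0.55 to 0.78.

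**Figure D2:**
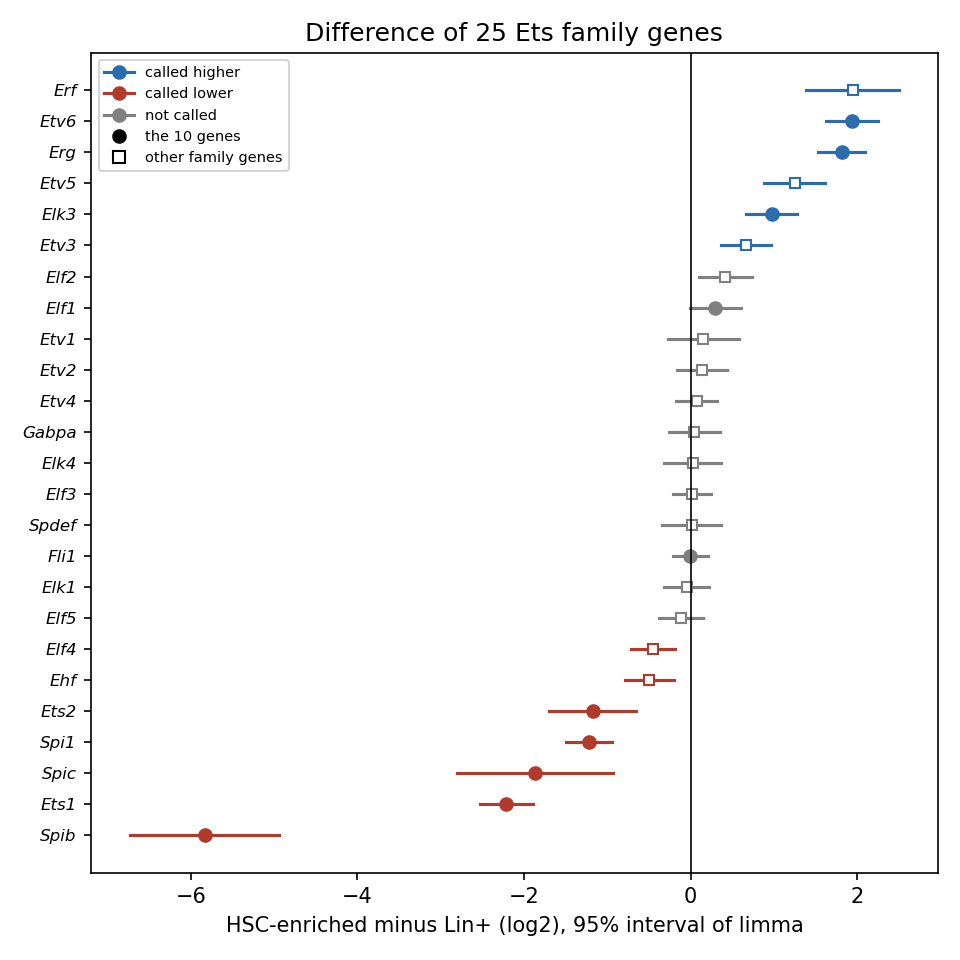
HSC-enriched minus Lin+ difference (log2) of the 25 measured Ets family genes with limma's 95% interval, ordered by difference; filled circles are the 10 genes, open squares the other 15. Spib lies apart at -5.84, while Erf, Etv6 and Erg lead the higher side at 1.94, 1.94 and 1.81.

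All 3 genes of the Spi subfamily were lower in HSC-enriched cells, by very different amounts. Spi1 (20375), which encodes PU.1, was at 10.71, 10.88, 10.91 and 10.69 in Lin+ cells and at 9.39, 9.53, 9.53 and 9.87 in HSC-enriched cells. Every HSC-enriched array lay lower than the Lin+ arrays and all 8 stayed far above the background guide of 5.09. That guide is the 95th percentile of the mean levels of 1091 olfactory receptor genes, used because no detection calls come with the table. The means were 9.58 ± 0.20 and 10.80 ± 0.12 (SD, n = 4), a difference of -1.22 (95% interval -1.50 to -0.94) or 2.33-fold lower, with a limma adjusted p of 3.9e-05. The 11 neutrophil markers averaged 9.17 and 9.01 on HSC-enriched replicates 3 and 4, 6.80 and 6.77 on replicates 1 and 2 and 11.41 to 11.65 on Lin+ arrays. With HSC-enriched replicates 3 and 4 left out, the difference of Spi1 was -1.34. Of these arrays only replicate 4, at 9.87, stood out for Spi1, since replicate 3 read 9.53 like replicate 2.

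Spib (272382), a B cell and plasmacytoid dendritic cell factor, gave 10.80, 9.99, 10.10 and 10.25 in Lin+ cells and 3.88, 4.21, 5.86 and 3.85 in HSC-enriched cells. On HSC-enriched replicate 3 it lay above the guide, and on the other three it lay lower than the guide. The difference was -5.84 (95% interval -6.73 to -4.94), or 57.1-fold lower, with a limma adjusted p of 3.1e-06. Only 14 genes of the 24011 had a lower difference, and the size of the fold rests on an HSC-enriched mean of 4.45 ± 0.96 (SD, n = 4) near background. The 8 measured B cell markers averaged 6.23 on HSC-enriched replicate 3, against 4.98, 4.90 and 5.15 on replicates 1, 2 and 4 and 9.15 to 9.79 on Lin+ arrays. The 6 plasmacytoid dendritic cell markers averaged 6.35 on replicate 3 and 5.64 to 5.77 on the other HSC-enriched arrays. Replicate 3 was also the highest HSC-enriched array for the means of neutrophil (9.17), erythroid (5.92) and plasma cell (5.50) markers. So it was for T and NK cell (5.24), monocyte and macrophage (5.21) and red pulp-type macrophage (4.96) markers. Megakaryocyte and platelet markers, at 7.53, were not highest there. Being highest on replicate 3 was thus shared by several lists, with gaps of unlike size. The next highest HSC-enriched array gave 5.15 for B cell, 9.01 for neutrophil, 5.40 for erythroid and 4.89 for red pulp-type macrophage markers. Without replicate 3 the difference of Spib was -6.31. Of the B cell markers 4 lay at or under the guide in HSC-enriched cells.

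Spib fell further than Spi1, with a difference of -4.62 on the log2 scale that is limited by background, since Spib lay under the guide on 3 HSC-enriched arrays (exact two-sided permutation test, p = 0.0286, adjusted p = 0.0476 over the 5 pairs). With 7 arrays that call too was kept only without HSC-enriched replicate 2 or Lin+ replicate 3, with values from -5.10 to -4.32.

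Spic (20728), a factor of red pulp and bone marrow macrophages that recycle iron, was the most variable member in Lin+ cells. It read 5.61, 7.21, 7.28 and 7.86 there, and 5.37, 5.57, 5.01 and 4.53 in HSC-enriched cells. Lin+ replicate 1 stood barely above the highest HSC-enriched array, and 2 of the HSC-enriched arrays lay lower than the guide. The means of 5.12 ± 0.45 and 6.99 ± 0.96 (SD, n = 4) differ by -1.87 (95% interval -2.81 to -0.94), or 3.66-fold, with a limma adjusted p of 0.0067. The call was lost with HSC-enriched replicates 3 and 4 left out together (-1.52, adjusted p = 0.068). The mean of the 8 red pulp-type macrophage markers was lowest on the same Lin+ array, at 6.46. It was 7.58, 7.20 and 7.68 on Lin+ replicates 2, 3 and 4, and 4.64 to 4.96 on HSC-enriched arrays. Of these markers, Mertk was lower on Lin+ replicate 3 (5.17) than on replicate 1 (5.35). Lin+ replicate 1 was also lowest among Lin+ arrays for the means of erythroid (8.27), neutrophil (11.41), and monocyte and macrophage markers. So it was for megakaryocyte and platelet (6.24) and endothelial (5.52) markers. It was highest for B cell (9.79) and plasmacytoid dendritic cell (9.62) markers. Being lowest on this array was thus shared by several lists, with gaps of unlike size. The other Lin+ arrays averaged 8.90 to 9.10 for erythroid, 11.57 to 11.65 for neutrophil and 5.56 to 5.70 for endothelial markers. Vcam1, an adhesion molecule gene among the red pulp-type macrophage markers, was at 6.75 on Lin+ replicate 1. It was at 8.40, 8.12 and 8.54 on the other Lin+ arrays. The part that macrophages in Lin+ samples play in the Spic values was not tested. Whether Spic and Spi1 differed in change was not settled (-0.65, exact permutation p = 0.286).

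**Figure D3:**
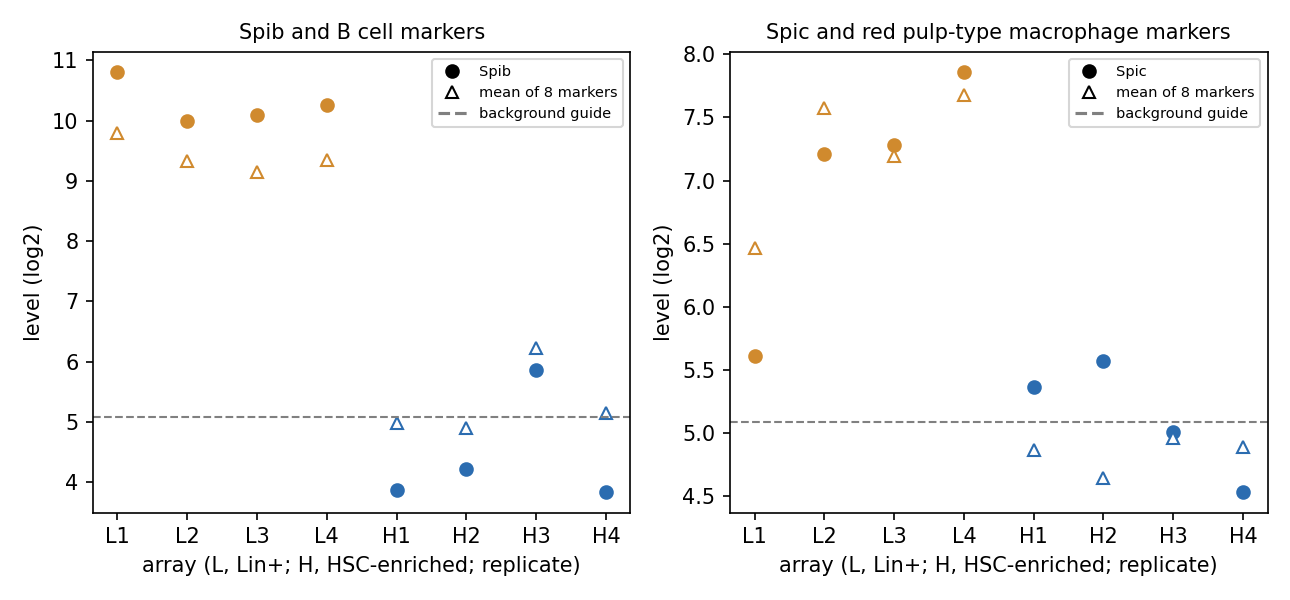
Level (log2) of Spib with the mean of 8 B cell markers, and of Spic with the mean of 8 red pulp-type macrophage markers, on each Lin+ (L, orange) and HSC-enriched (H, blue) array. Spib and the mean of its markers are highest among HSC-enriched arrays on replicate 3, at 5.86 and 6.23. Spic and the mean of its markers are lowest among Lin+ arrays on replicate 1, at 5.61 and 6.46. The means of neutrophil and erythroid markers, not drawn, were also highest on that HSC-enriched array and lowest on that Lin+ array.

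Ets1 (23871), a factor of T, NK and B cells, was at 9.08, 8.87, 8.86 and 8.85 in Lin+ cells and at 6.50, 6.47, 7.04 and 6.80 in HSC-enriched cells. The groups lie far apart and all arrays exceed the guide. The difference was -2.21 (95% interval -2.53 to -1.90), or 4.63-fold lower, with a limma adjusted p of 1.9e-06, the smallest of the 10 genes. The 10 T and NK cell markers averaged at least 7.68 on Lin+ and 4.90 to 5.24 on HSC-enriched arrays, and 7 of them lay at or under the guide in HSC-enriched cells, where Ets1 did not.

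Ets2 (23872), which acts downstream of Ras and MAP kinases, gave 8.54, 9.41, 9.16 and 8.23 in Lin+ cells and 7.83, 7.63, 7.46 and 7.72 in HSC-enriched cells. Lin+ arrays spread widely, with replicate 4 closest to the HSC-enriched range, and the groups do not overlap. The means of 7.66 ± 0.16 and 8.83 ± 0.54 (SD, n = 4) differ by -1.18 (95% interval -1.70 to -0.65), or 2.26-fold, with a limma adjusted p of 0.0034. Whether Ets1 and Ets2 differed in change was not settled, since their difference of 1.04 gave an exact permutation p of 0.0571 and an adjusted p of 0.0714.

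Some of these genes sit in neighbouring pairs on the chromosomes. In RefSeq (GRCm38.p6) Erg and Ets2 lie on chromosome 16 and Fli1 and Ets1 on chromosome 9, each pair with 0 annotated protein-coding genes between its members. On chromosome 16 Erg was higher by 1.81 while its neighbour Ets2 was lower by a difference of -1.18. On chromosome 9 Ets1 differed by -2.21, and its neighbour Fli1 had an interval of -0.21 to 0.21.

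Among the 15 other family genes 3 were called higher, 2 lower and 10 not, with a median difference of 0.04. These shares are close to those over all genes, 15.5% higher and 12.4% lower. Erf, an ERK-regulated repressor, had the largest difference of them. It gave 7.50, 7.65, 7.66 and 6.90 in Lin+ and 9.17, 10.01, 9.47 and 8.84 in HSC-enriched cells, a difference of 1.94 (95% interval 1.39 to 2.50, limma adjusted p = 0.00020). Etv5, a target of fibroblast growth factor and Ras signalling, was at 7.36, 6.67, 7.30 and 7.12 against 8.46, 8.53, 8.37 and 8.09. It was 2.38-fold higher (adjusted p = 0.00024), whereas its relatives Etv1 and Etv4 differed by 0.15 and 0.07 and did not pass. Etv4 lay lower than the guide on all arrays. The repressor gene Etv3 was 1.59-fold higher (adjusted p = 0.0035).

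Elf4, which restrains T cell proliferation, fell by 0.45 (adjusted p = 0.016) and lost its call when quantile normalized again (-0.37, adjusted p = 0.054). Its relative Elf2 differed by 0.42 with no overlap between groups but did not pass (adjusted p = 0.055). Elf2 was called in 6 alternatives, among them the omission of HSC-enriched replicate 4 (0.49, adjusted p = 0.038). The epithelial genes Elf3, Elf5 and Ehf, like Etv2, stayed lower than the guide on all 8 arrays. Ehf was nevertheless called lower (-0.49, adjusted p = 0.018) and lost that call without Lin+ replicate 3 or HSC-enriched replicate 1 or 2 (adjusted p = 0.053, 0.052 and 0.053). Gabpa, Elk1, Elk4 and Spdef differed by 0.04, -0.05, 0.02 and 0.01, and their 95% intervals stayed within -0.34 to 0.37.

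Partners of Ets proteins on DNA were then read from a fixed list of 15 genes, of which 6 were higher, 4 lower and 5 not called (median 0.08), where 15.5% of all genes were higher and 12.4% lower. Gata2, a stem and progenitor factor, read 5.70, 6.35, 6.89 and 6.24 in Lin+ and 9.67, 9.72, 9.45 and 9.40 in HSC-enriched cells, a 9.63-fold rise (adjusted p = 2.3e-06). Lmo2, the bridging subunit of the Tal1 complex, was 2.60-fold higher (adjusted p = 2.0e-05). Runx1, Tal1 and Ldb1 were also called higher, 1.67-fold, 1.99-fold and 2.01-fold, while Lyl1 differed by -0.12 and did not pass. Irf4 and Irf8, which bind composite sites with PU.1 and Spi-B, differed by -3.85 and -3.66 (adjusted p = 1.5e-06 and 6.2e-07), and the HSC-enriched mean of Irf4, 5.03, lies under the guide. Gata1, an erythroid and megakaryocyte factor, and Cebpa, a granulocyte factor, were lower too, by differences of -0.72 and -1.25 (limma adjusted p = 0.037 and 0.00019). The groups overlap for Gata1, with 6.96 to 7.82 in Lin+ and 6.21 to 7.05 in HSC-enriched cells. Of the 7 factors named above as binding together, Erg, Tal1, Lmo2, Runx1 and Gata2 were called higher, and Fli1 and Lyl1 were not called.

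**Figure D4:**
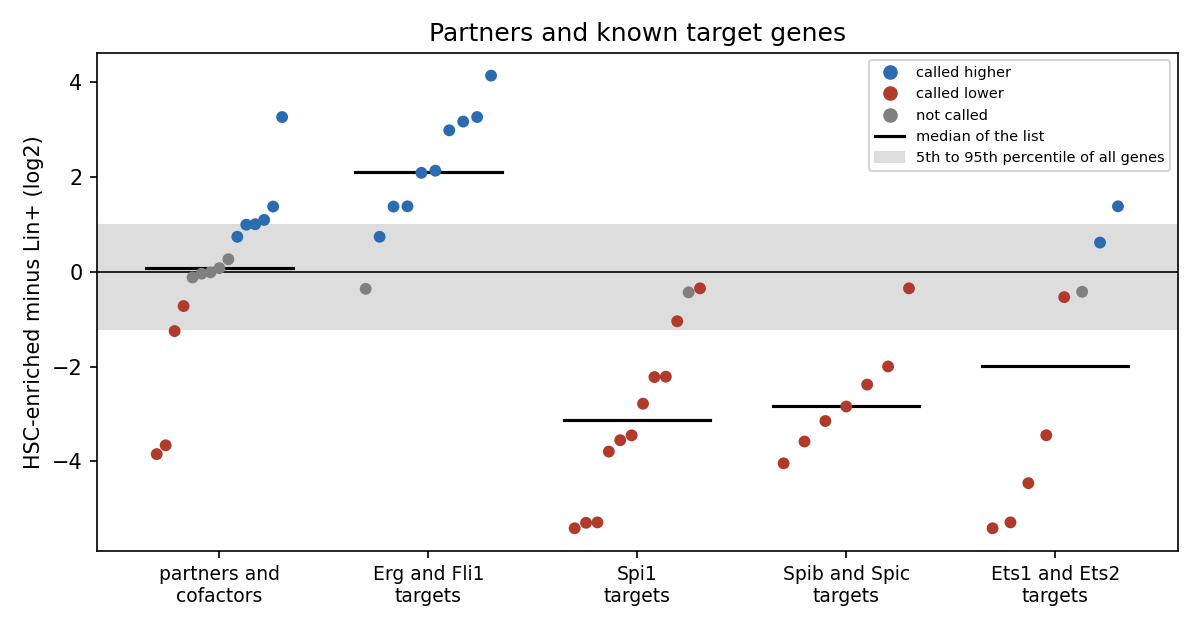
HSC-enriched minus Lin+ difference (log2) of each partner or target gene, coloured by call, with the median of each list as a black line and the 5th to 95th percentile of all genes (-1.20 to 0.99) in grey. Erg and Fli1 targets have a median of 2.11, and those of Spi1, of Spib and Spic and of Ets1 and Ets2 have medians of -3.12, -2.84 and -1.99.

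Genes known as targets of these factors were counted by factor. Of 12 listed Erg and Fli1 targets 10 were measured, of which 9 were higher and 0 lower (median 2.11, against 0.02 over all genes). Over all genes 15.5% were called higher and 12.4% lower. Mecom, a stem cell zinc finger factor, differed by 4.14 (adjusted p = 9.8e-08), from a Lin+ mean of 4.94 under the guide, which sets the size of the rise. Gata2 stands in this list too. Cdh5, the vascular cadherin gene, differed by -0.36 and did not pass. Of the 8 endothelial markers, which include Cdh5, 4 were higher, 1 was lower and 3 were not called. Their mean ran from 5.52 to 5.70 on Lin+ and from 6.74 to 7.20 on HSC-enriched arrays, and its part in the Erg values was not tested. Pf4, Gp9, Itga2b and Vwf stand both in the target list and among the megakaryocyte and platelet markers. Of the 6 measured markers of that kind 4 were higher and 0 lower, with means of 6.24 to 6.86 on Lin+ and 7.47 to 7.94 on HSC-enriched arrays. The 4 higher ones are those same target genes, so the marker count restates them. Ppbp and Itgb3, the markers outside the target list, differed by -0.02 and -0.30 and did not pass. For Itgb3 all HSC-enriched arrays lay lower than all Lin+ arrays. The part of megakaryocytes and platelets in the target count was not tested.

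Of 12 Spi1 targets 11 were lower and 0 higher (median -3.12), where 12.4% of all genes were lower and 15.5% higher. Il7r, the interleukin 7 receptor gene, differed by -5.41 (adjusted p = 1.6e-07), from a Lin+ mean of 9.05 to an HSC-enriched mean of 3.64 that lies under the guide, so the size of the fall rests on background. Cybb, which encodes a subunit of the phagocyte oxidase, read 11.36, 11.48, 11.49 and 11.49 in Lin+ and 5.21, 3.97, 7.91 and 7.55 in HSC-enriched cells. Its HSC-enriched values are split, with replicates 3 and 4 high as for the neutrophil markers. The difference of -5.29 (adjusted p = 0.00032) was -4.56 without HSC-enriched replicate 2, -5.88 without replicate 3 and -6.87 without replicates 3 and 4. Itgam and Ncf1 were 13.9-fold and 11.7-fold lower. Csf1r differed by -3.45 with its HSC-enriched mean of 4.84 under the guide, while Tlr4 differed by -0.43 and did not pass.

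All 7 targets of Spib and Spic were lower (median -2.84), among them Slc40a1, the iron exporter ferroportin (-4.04), and Tlr7, an RNA sensor of B cells and plasmacytoid dendritic cells (-3.58). Their HSC-enriched means, 4.30 and 3.68, lie under the guide, so the sizes and their order rest on background. Of 8 Ets1 and Ets2 targets 5 were lower and 2 higher (median -1.99). For these lists and the markers given here, the shares over all genes were 12.4% lower and 15.5% higher. Cd79a, a subunit of the B cell receptor, differed by -5.29, and of its HSC-enriched values only replicate 3, at 6.87, lay above the guide. Itga2b and Ccnd1 were 2.61-fold and 1.54-fold higher. The lists share genes: Il7r and Cd79a stand under both Spi1 and Ets1, Btk under both Spi1 and Spib, and Itga2b under both Fli1 and Ets1. Many targets of Spi1, Spib, Spic and Ets1 are themselves markers of mature cells. All measured markers of B cells (8), monocytes and macrophages (7), T and NK cells (10) and erythroid cells (6) were lower. So were 10 of 11 neutrophil, 7 of 8 red pulp-type macrophage, 5 of 6 plasmacytoid dendritic cell and 3 of 5 plasma cell markers, with 0 higher in any of these lists. The part of these cells in the target counts was not tested.

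For Erg, Fli1, Spi1 and Spib the genes with the most similar profile over the 8 arrays were found, as the smallest root mean square difference between each gene's deviations from its own mean (log2). Nearest to Erg were Spryd7 (0.08), Crim1 (0.11) and Atp2b4 (0.11), with group differences of 1.71, 1.93 and 1.78. Fli1 was followed most closely by Dnajc8, Kbtbd2 and Kpna4 at 0.03, 0.03 and 0.04, all with differences near 0. The nearest to Spi1 were Tmem189, Mreg and Ehbp1l1 at 0.10, 0.10 and 0.11. Spib was closest to Ifi209 (0.14), Ebf1 (0.24) and Ms4a1 (0.35). Ebf1, a B cell specification factor, read 3.81, 3.75, 5.58 and 3.65 on HSC-enriched replicates 1 to 4, high on the same replicate 3 as Spib. These genes were picked for closeness over the same 8 arrays. Their similar group differences and the shared replicate 3 value were fixed by that choice and are no support for a link.

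The 8 arrays had medians of 5.22 to 5.33. Pearson correlations over all genes (not independent of each other) were at least 0.978 within a group and at most 0.922 between groups. Gate antigens went with the sort, with Kit, Eng and Slamf1 higher by 3.20, 2.96 and 1.79 and Cd48 lower by a difference of -3.69. All 9 measured HSC markers, Kit among them, were higher, and all 6 measured lineage antigens were lower. Over all genes 15.5% were higher and 12.4% lower. The lineage antigens averaged 5.72 and 5.60 on HSC-enriched replicates 3 and 4, and 4.76 on replicates 1 and 2. Their Lin+ means were at least 7.84. Ly6g read 3.28, 3.65, 6.69 and 6.28 on HSC-enriched replicates 1 to 4, and Itgam 5.89, 5.72, 7.11 and 7.78. Cd4, Cd5 and Cd8a were not split in this way. The part of mature cells in these values was not tested.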

How the data were processed

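Amplified, biotin-labelled cDNA of sorted bone marrow cells was hybridised to 1-colour MouseGene ST arrays of Affymetrix. The labels' protocols name 2 versions of the array without assigning them to samples. The deposited table holds log2 levels for 24973 probe sets, made by the authors with RMA and Partek according to the submitters' processing notes. Build, probe set definition and pooling were not given in the sources used here. Values from 1.66 to 13.1 gave the log2 scale.

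Symbols were found for 24015 probe sets, 23922 of them updated by Entrez gene through RefSeq (GRCm38.p6), and 958 stayed unnamed. The brightest probe set per symbol left 24011 genes. Groups were compared with limma 3.58.1 (R 4.3.3, lmFit and eBayes, no covariates, no filter), with Benjamini-Hochberg adjustment over all genes and a threshold of 0.05. This fit was tested on simulated data. Pairs of genes were compared by exact permutation over arrays. Members, gene lists, naming rule and alternatives were set with earlier results of these data known. The rule took all Ets family genes, gate antigens, up to 2 rising and 2 falling genes per partner or target list, and the 3 nearest profiles for 4 members. Other list genes were named after their values were seen. Alternatives were centring each array, renewed quantile normalization, a filter on 4 arrays at the median or the 40th percentile of all values, and eBayes with trend and robust options. Further ones were arrayWeights, a block on replicate number, single arrays left out, and HSC-enriched replicates 3 and 4 left out together. Figures used matplotlib 3.10.9 (Python 3.11.15). Precision is limited by 4 arrays per group. Genes listed but not measured were not analysed here.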

Additional observations from a re-analysis of the deposited data

Results flagged for a closer look

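Each gene taken by the naming rule gave 1 group of 4 values per population, 106 groups in all. Genes named outside that rule were not examined. In 8 groups an array lay apart from the other 3 by more than Dixon's 95% critical value allows. Chance gives about 1 in 20. Among Ets family genes there were 2 in 50. Ets1 was at 9.08 on Lin+ replicate 1, against 8.85 to 8.87 on the other Lin+ arrays, a gap far smaller than its difference between groups. Elf5 was at 3.80 on Lin+ replicate 3, against 3.68 to 3.69, all lower than the background guide. Ebf1 and Ifi209 were at 5.58 and 4.89 on HSC-enriched replicate 3, against 3.65 to 3.81 and 2.94 to 3.14 on the other arrays of that group. Both had been picked for profiles near that of Spib, so sharing its high replicate followed from the choice. Spib itself, at 5.86 there, did not reach the limit. Irf8 was at 8.88 on Lin+ replicate 3 (the others 9.15 to 9.20), and Cybb at 11.36 on Lin+ replicate 1 (the others 11.48 to 11.49). Slamf1 was at 7.39 on HSC-enriched replicate 2 (the others 7.07 to 7.11), and Atp2b4 at 8.81 on the same array (the others 8.72 to 8.74).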

How the results depend on the processing

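Of the 10 genes, 7 kept their call and direction in all 16 alternatives: Erg, Etv6, Elk3, Spi1, Spib, Ets1 and Ets2. The counts of 3 higher and 5 lower held in every alternative but 2: quantile normalization gave 4 higher, with Elf1, and leaving out HSC-enriched replicates 3 and 4 together gave 4 lower, without Spic. With the replicate block, 3 genes were higher and 5 lower as well, and over all genes 3379 were higher and 2743 lower. Nothing in the labels states that the replicate numbers pair the samples. Deviations of same-numbered arrays from their group means correlated at -0.152 to 0.0587, and 2 of 4 HSC-enriched arrays correlated best with their own number. With 4 arrays per group these values cannot settle whether the samples were paired.

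Over all genes, calls ran from 3152 to 4044 higher and from 2392 to 3048 lower, and no scaling moved the median difference by more than 0.1. The pair differences with single arrays left out ran from 1.72 to 1.90 for Erg against Fli1, from -5.10 to -4.32 for Spib against Spi1 and from 0.55 to 0.78 for Elk3 against Elf1, with calls lost in 6 omissions each. There 7 arrays allow no p smaller than 0.0286 before adjustment over the 5 pairs, so lost calls do not single out arrays. Without HSC-enriched replicates 3 and 4 they were 1.72, -4.90 and 0.49 (adjusted p = 0.167), where 6 arrays allow no p smaller than 0.0667.

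Genes that were not called changed sign as follows. Fli1 was 0.10 with quantile normalization, 0.013 with array weights, 0.049 without HSC-enriched replicates 3 and 4 and -0.041 to 0.041 with single arrays left out. Spdef was -0.020 with quantile normalization, -0.0035 with centring, -0.062 without replicates 3 and 4 and -0.075 to 0.16 with single omissions. Elf3 was -0.0014 with centring, -0.012 without both replicates and -0.028 to 0.053 with single omissions. Etv1 was -0.11 without both replicates and -0.00016 to 0.25 with single omissions. Single omissions gave -0.11 to 0.019 for Elk1, -0.064 to 0.11 for Elk4 and -0.041 to 0.13 for Gabpa. Dnajc8 was 0.10 with quantile normalization, 0.043 without both replicates and -0.057 to 0.014 with single omissions. Kbtbd2 was -0.0062 with centring and -0.036 to 0.060 with single omissions. Kpna4 was 0.036 with quantile normalization, 0.0032 without both replicates and -0.097 to 0.0013 with single omissions. Both filters left Elf3, Elf5, Ehf and Etv2 untested, and one of them Etv4. Folds of Spib, Spic and the partner and target genes named as under the guide rest on values near background.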

Other observations

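Etv6, Erf, Etv3 and Elk3 are the mouse Ets genes best known for repressing their targets. This grouping was made after their values were seen. All 4 were called higher in HSC-enriched cells, by 1.94, 1.94, 0.67 and 0.97 on the log2 scale, and none of the 4 had overlapping groups. Since the group was chosen on these values, the count is no support for a pattern. All HSC-enriched arrays lay above all Lin+ arrays for 7 of the 25 family genes and for 15.9% of all genes. Of the 25 family genes 6 were called higher, where the share over all genes was 15.5%. The remaining genes called higher were Erg and Etv5. Erf varied more between HSC-enriched arrays than Etv6 did, with an SD of 0.49 against 0.10.

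Read by subfamily, the 7 genes called lower were the Spi genes, Ets1 and Ets2, Elf4 and Ehf. The serum response factor gene Srf, the partner of Elk1, Elk3 and Elk4, differed by -0.01, and of these 3 genes only Elk3 was called. Gabpb1 and Gabpb2, which pair with Gabpa, differed by 0.27 and -0.04 and did not pass.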
